A study of Mus musculus with 6 samples.

Results

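The genes described here serve mitosis, the phase in which a cell condenses its copied chromosomes, pulls them apart on a spindle of microtubules and divides. Each chromosome is held to the spindle at its centromere by the kinetochore, a large protein assembly that is built before each division and taken apart after it. The spindle checkpoint delays the separation of chromosomes until all kinetochores are attached, and the anaphase-promoting complex then marks cyclin B and other proteins for destruction. Most of these genes are transcribed late in the cell cycle, in the G2 and M phases, and are low in resting cells. Muscle stem cells (MuSCs), the stem cells that repair skeletal muscle, rest in healthy adult muscle and divide after damage.

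The list held 45 gene symbols, given as a fixed list of mitosis and kinetochore genes and not chosen by a threshold on these libraries. It was chosen, however, with earlier results of these data known. All 45 were among the 22706 genes of the table, and all 45 passed the filter for testing, a mean of at least 5 over the 6 libraries. Ttk and Cenph passed it only through the mdx libraries, with means of 3.0 and 2.75 over the other 4 libraries. Wherever they are counted below as high in mdx, they are no support for the list. By their known roles, 7 served chromosome structure or marked proliferation, 7 mitotic entry and the centrosome, 6 the spindle checkpoint, 8 the centromere and kinetochore, 4 the chromosomal passenger complex, 7 spindle motors and spindle assembly and 6 the central spindle and cytokinesis.

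RNA-seq libraries of freshly sorted MuSCs came from 3 groups with 2 libraries each. Control mice were wild type, mdx mice, used to model Duchenne muscular dystrophy, carried a loss-of-function mutation in the gene of dystrophin, and Sirt6mKO/mdx mice carried the mdx mutation and a deletion of Sirt6, a protein deacetylase of the sirtuin family. The labels give the strain C57BL/6 for every library, while the methods of the study name C57BL/10ScSn-Dmdmdx/J as the source of the mdx allele. The reporting summary of the study states that the mice were kept on C57BL/6, with littermates as controls. Sirt6 was deleted with a Cre recombinase driven by the Pax7 locus, which acts in the whole skeletal muscle lineage and not in MuSCs alone, and the deletion removes exons 4 to 6. The figure legends for these MuSC data give male mice but differ in their age, between 8 and 16 weeks, the labels give neither age nor sex, and no treatment is named. The methods state 2 biological replicates, but the labels do not tie the libraries to single animals, so the p-values measure the spread between these libraries.

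Several facts of the libraries bear on the values. The depth came to between 4397632 and 9745218 approximate reads, and fewer cells of a type and less RNA per cell cannot be told apart in bulk samples of this kind. MuSC markers were high in every library, with a summed level of 17453 to 23249 over 9 genes and none at 0, and Pax7, the defining transcription factor of MuSCs, lay between 2167 and 3236. Of the 9 markers, Sdc4 (syndecan-4) moved between the groups, from 7692 and 6224 in control to 1100 and 1049 in mdx, with 2753 and 2822 in Sirt6mKO/mdx, and was called in all 3 comparisons. Xist, the RNA of the inactive X chromosome, reached 16772 and 12950 in control but was 7 and 8 in mdx and 33 and 34 in Sirt6mKO/mdx. Ddx3y, a gene of the Y chromosome, was 3 and 8 in control against 1024 and 1055 in mdx, with 1555 and 1767 in the third group. The control libraries thus went against the stated male sex and differed from both other groups in sex-linked RNA, and sex and genotype cannot be told apart in any comparison with control. Sirt6, the targeted gene, was 41 and 32 in control, then 33 and 40 in mdx, and stood at 37 and 30 in the third group, so its level over the whole gene did not set the third group apart, and the values do not resolve the deleted exons. This group is therefore called the libraries labelled Sirt6mKO/mdx.

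G2 and M phase genes are known to be controlled through short elements close to their transcription start, and the sequences of several members show them. One is the CHR element (cell cycle genes homology region), searched here as TTTGAA or TTCGAA. The other is the CCAAT box, bound by the factor NF-Y, searched as CCAAT. Both were searched on both strands, and on the other strand a CHR element reads TTCAAA (or again TTCGAA) and a CCAAT box reads ATTGG. RefSeq promoters on build GRCm38.p6 matched 39 of the 45 members by symbol, with 42 start sites because 3 members had 2, and the members without an entry were Tpx2, Spc24, Aurkb, Kif20a, Incenp and Smc4. The sequences are the 100 bases before the start, 5′ to 3′ on the strand of the gene, in lower case with matches to either element in capitals. The first 3 belong to the members with the highest fitted log2 fold change in mdx against control. Their rank depends on the pseudocount, most of all for Ttk, whose control values are 0:

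Bub1 (chr2:127831860-127831959, minus strand): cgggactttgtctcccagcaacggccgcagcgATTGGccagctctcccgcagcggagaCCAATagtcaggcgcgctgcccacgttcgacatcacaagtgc
Hmmr (chr11:40733438-40733537, minus strand): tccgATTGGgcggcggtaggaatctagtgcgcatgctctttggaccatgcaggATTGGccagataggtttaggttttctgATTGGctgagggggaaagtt
Ttk (chr9:83834589-83834688, plus strand): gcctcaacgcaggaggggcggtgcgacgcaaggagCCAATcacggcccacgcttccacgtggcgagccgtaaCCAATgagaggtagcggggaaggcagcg

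The next 3 belong to members that also rose in mdx MuSCs and hold both elements within these 100 bases:

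Cdk1 (chr10:69352913-69353012, minus strand): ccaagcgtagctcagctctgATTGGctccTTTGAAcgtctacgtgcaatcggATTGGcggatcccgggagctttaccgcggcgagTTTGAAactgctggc
Kif11 (chr19:37376282-37376381, plus strand): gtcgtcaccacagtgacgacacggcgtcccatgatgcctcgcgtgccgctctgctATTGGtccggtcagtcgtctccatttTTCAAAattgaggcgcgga
Top2a (chr11:99024190-99024289, minus strand): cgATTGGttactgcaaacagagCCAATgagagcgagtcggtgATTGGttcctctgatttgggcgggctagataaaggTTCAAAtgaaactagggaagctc

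The last pair belongs to Aurka, whose level in mdx lay close to that of control, and to Plk4, the member with the lowest fold change:

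Aurka (chr2:172370571-172370670, minus strand): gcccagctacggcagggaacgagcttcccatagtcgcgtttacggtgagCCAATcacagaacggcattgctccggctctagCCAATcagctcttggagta
Plk4 (chr3:40799851-40799950, plus strand): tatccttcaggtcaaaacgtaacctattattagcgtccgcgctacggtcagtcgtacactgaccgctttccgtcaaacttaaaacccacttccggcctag

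These 8 genes were picked after their values and matches had been seen, so they illustrate the elements and test nothing. Bub1, Ttk and Aurka hold 2 CCAAT boxes each in the window and Hmmr and Top2a hold 3, whereas Plk4 holds neither element. Within 100 bases of the start, 26 of the 42 member promoters (61.9%) held a CCAAT box, against 18.9% of all 32851 promoters of the table, and 14 (33.3%) held at least 2, against 3.57%. A CHR element lay in 9 of 42 (21.4%) against 6.13% of all promoters, and both elements in 6 (14.3%) against 1.14%. Over 250 bases the shares were 73.8% against 33.9% for the CCAAT box and 40.5% against 17.2% for the CHR element. Among members that rose in mdx MuSCs, 14 of 16 promoters held a CCAAT box within 250 bases and 9 a CHR element. Among the other members 17 of 26 held a CCAAT box and 8 a CHR element. A match is a run of letters and was not examined for binding.

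**Figure D1:**
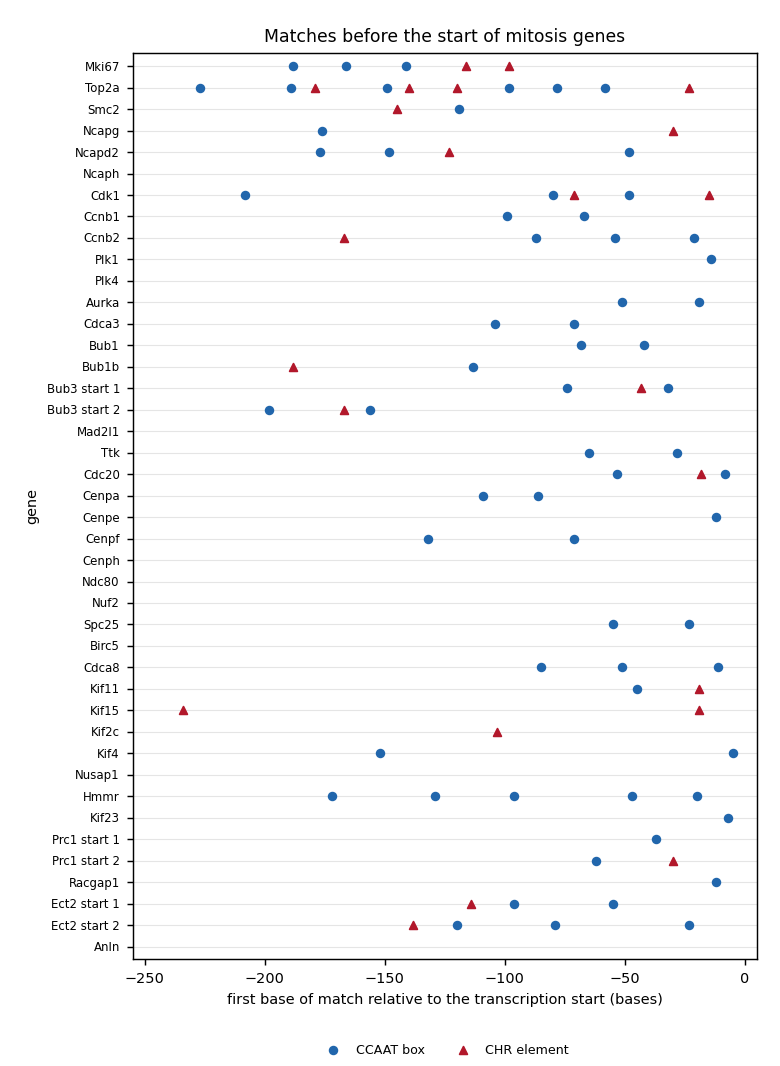
Positions of CCAAT boxes (blue circles) and CHR elements (red triangles) in the 250 bases before the start of 42 member promoters, on either strand; the x axis gives the first base of the match relative to the start in bases, and genes follow the order of their roles. CCAAT boxes crowd within 100 bases of the start, where 26 of 42 promoters hold at least 1, and 9 rows have no match.

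The first comparison asked how mitosis genes differ between MuSCs of dystrophic and of healthy muscle. Of the 45 genes, 17 (37.8%) were higher in mdx than in control by the criteria for a call, an adjusted p of at most 0.05 and a log2 fold change of at least 1, against 6.89% of all 15915 genes tested. None was called lower, against 7.34% of all genes, and at an unadjusted p under 0.05 in limma 29 were higher (64.4%, against 15.5% of all genes) and 1, Plk4, was lower (against 15.4%). The median log2 fold change of the members was 1.75, where the median over all genes was 0.00, and 42 members lay above 0. Both mdx libraries exceeded both control libraries in 39 members (86.7%), against 28.7% of all genes, and lay below both in 1 (2.2%), Plk4, against 28.3%. Ttk and Cenph, which passed the filter only through mdx, are among the 29, the 42 and the 39 and are no support there. Values are normalized read counts, and fold changes are on the log2(value + 1) scale of limma, with two-sided Benjamini-Hochberg adjusted p-values over all genes tested.

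Summed over the members, the level came to 1738 and 1845 in control, 3850 and 4983 in mdx and, in the third group, 2264 and 3234. The third group thus lay between control and mdx, without overlap. The libraries labelled Sirt6mKO/mdx differed from each other as well: replicate 2 exceeded replicate 1 in 37 of 45 members (82.2%), against 48.8% of all genes. The mdx libraries differed in the same way, with replicate 2 above replicate 1 in 34 members (75.6% against 46.7%), while control replicate 2 exceeded replicate 1 in 24 (53.3% against 46.7%). As a share of all values in a library, the members took 0.0262% and 0.0332% in control and 0.0603% and 0.0888% in mdx. For the third group it was 0.0235% and 0.0364%, so on that scale the third group overlapped control. All values summed to 9626453 and 8883310 in the third group, against 5564142 to 6642949 in the other libraries. At an equal normalized read count this larger sum makes the share of a gene smaller.

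**Figure D2:**
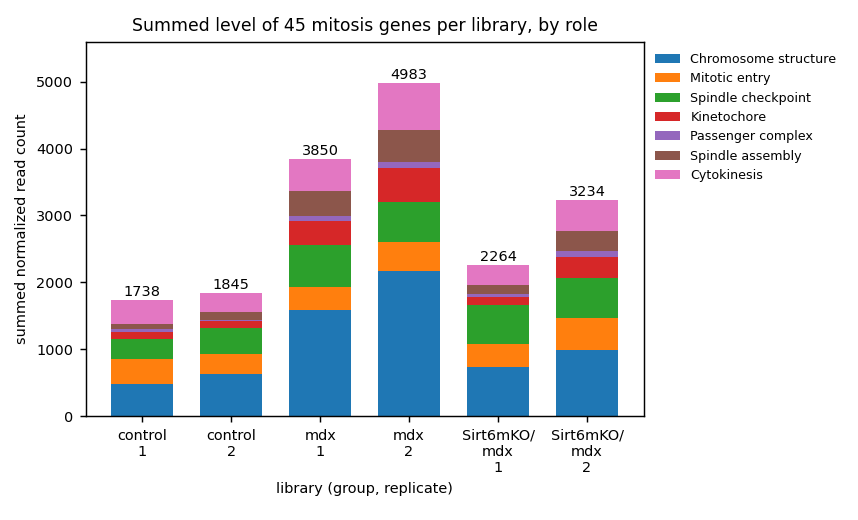
Summed normalized read count of the 45 mitosis genes in each of the 6 libraries, stacked by role, with the total above each bar; groups and replicates are on the x axis. The mdx totals, 3850 and 4983, lie above the control totals, 1738 and 1845, and the third group lies between them.

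Among genes of chromosome structure, 5 of 7 rose in mdx MuSCs. Mki67, the proliferation marker Ki-67 that coats mitotic chromosomes, was 39 and 80 in control against 252 and 548 in mdx, with 99 and 162 in the third group. Top2a, the topoisomerase that disentangles sister chromatids, was 30 and 61, 229 and 369, and 71 and 128 in the same order. In both genes the 3 groups were apart, with the third group between the others. The log2 fold change in mdx against control was 2.71 for Mki67 (SE 0.42, adjusted p 0.000522) and 2.73 for Top2a (SE 0.42, adjusted p 0.000448).

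Condensins are ring complexes that compact mitotic chromosomes around a pair of SMC proteins. Smc2, which forms the core of both condensins together with Smc4, was 30 and 56 in control, then 254 and 254 in mdx, and stood at 39 and 84 in the third group, whose libraries overlapped control. Smc4 was 157 and 179, 574 and 559, and 311 and 344. The groups did not overlap for Smc4. Smc2 differed between mdx and control by 2.60 (SE 0.43, adjusted p 0.000856) and Smc4 by 1.75 (SE 0.25, adjusted p 0.000237), the lowest adjusted p of the list. Smc4 also had the highest level per length among members in mdx, 109 normalized reads per exonic kilobase, followed by Ccnb2 at 53.6.

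The condensin I subunits Ncapg, Ncapd2 and Ncaph did not behave alike. Ncapg was 2 and 5 in control, 53 and 87 in mdx and, in the third group, 15 and 56, and rose by 4.02 in mdx (SE 0.74, adjusted p 0.00187), with part of its exons shared with Lcorl on the opposite strand. Ncapd2 was 204 and 204 in control and 177 and 284 in mdx, with overlapping groups and a log2 difference of 0.14 (95% interval -0.50 to 0.77). Ncaph lay between them at 0.96, with an adjusted p of 0.30. Ncapg was low in control and Ncapd2 was not.

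Of the 7 genes of mitotic entry and the centrosome, only Cdk1 was called. Cdk1, the kinase that drives entry into mitosis, was 24 and 30 in control against 71 and 116 in mdx, with 43 and 119 in the third group, with a log2 fold change of 1.72 in mdx (SE 0.51, adjusted p 0.030). Ccnb1, the cyclin that activates it, was 6 and 14, 22 and 26, and 34 and 35, so both libraries of the third group lay above mdx. Its log2 difference between mdx and control was 1.28 (SE 0.65, adjusted p 0.196). Plk1, a kinase that promotes entry and spindle assembly, was 6 and 5, 9 and 12, and 5 and 13, levels at which a difference was not resolved (0.82 in mdx against control, 95% interval -1.07 to 2.70).

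Plk4 and Aurka stood at the low end. Plk4, the kinase that starts centriole duplication, was 258 and 195 in control, then 114 and 118 in mdx, and stood at 166 and 181 in the third group. It was the member with both mdx libraries below both control libraries, by -0.95 (SE 0.29, adjusted p 0.0363), which passed the threshold on p but not the fold change of 1. Aurka, a kinase of the centrosome and spindle poles, was 17 and 14, 15 and 14, and 22 and 9, with overlapping groups and a difference of -0.09 whose 95% interval ran from -1.63 to 1.46. The other members of this role were Ccnb2 and Cdca3, a part of a ubiquitin ligase, at 1.15 and 1.44.

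In the spindle checkpoint, 2 of 6 genes were called higher in mdx. Bub1, a checkpoint kinase at the kinetochore, was 3 and 1 in control, 59 and 44 in mdx and, in the third group, 14 and 48. Its log2 fold change of 4.20 in mdx was the highest of the list at the pseudocount of 1 (SE 0.78, adjusted p 0.00202). With a pseudocount of 5 it was 3.01, below Ncapg (3.13), Cenpf (3.12) and Hmmr (3.02). Ttk, also called Mps1, the kinase that starts checkpoint signalling, was 0 and 0 in control against 17 and 14 in mdx, with 3 and 9 in the third group. Counted against a floor of 3 reads over the control group, Ttk was at least 10.2-fold higher in mdx (adjusted p 0.0205), and this floor covers counting error only. As Ttk passed the filter only through mdx, the group in which it was high, its call among the 17 is no support for the list. At this bound Ttk still lay above the median of the list, which is therefore the same.

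The other 4 checkpoint genes were not called. Bub3, the partner of Bub1 and Bub1b, was 163 and 230 in control, then 372 and 290 in mdx, and stood at 266 and 270 in the third group, with a difference of 0.76 in mdx (SE 0.28, adjusted p 0.0729). Mad2l1, the Mad2 protein that blocks the anaphase-promoting complex, was 17 and 29, 64 and 54, and 36 and 86, and differed by 1.36 (SE 0.53, adjusted p 0.0936). For both genes mdx and control did not overlap, yet neither passed the test. Bub1b, the BubR1 protein, differed by 0.08, and Cdc20, the activator that the checkpoint holds in check, by 1.64 (adjusted p 0.107).

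At the centromere and kinetochore, 2 of 8 genes were called higher and all 8 lay above 0, between 1.12 and 3.59. Cenpe, a motor that carries chromosomes to the spindle equator, was 21 and 39 in control, 105 and 158 in mdx and, in the third group, 25 and 58, a rise of 2.13 in mdx (SE 0.51, adjusted p 0.0105). Cenpf, a large protein of the outer kinetochore, was 6 and 12, 86 and 151, and 11 and 61, a rise of 3.59 (SE 0.72, adjusted p 0.00328). For both genes every mdx value was well above every control value.

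Cenpa, the histone H3 variant that defines the centromere, was 11 and 22 in control against 32 and 44 in mdx, with 28 and 67 in the third group, with a difference of 1.21 in mdx (adjusted p 0.189). Ndc80, the subunit that binds microtubules, was 9 and 8, 16 and 24, and 2 and 17, with a difference of 1.12 (95% interval -0.83 to 3.07). The 4 subunits of the Ndc80 complex, Ndc80, Nuf2, Spc24 and Spc25, lay between 1.12 and 2.31, and none was called. Cenph, of the inner kinetochore, was at 0 in 1 control library and differed by 2.66 (adjusted p 0.131).

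None of the 4 genes of the chromosomal passenger complex, which corrects faulty attachments and guides cytokinesis, was called, and the 95% interval of each included 0. Aurkb, its kinase, was 6 and 0 in control, then 12 and 10 in mdx, and stood at 2 and 15 in the third group, with the widest error of the list (2.18, SE 1.19, adjusted p 0.232). Birc5 (survivin) and Cdca8 (borealin) were likewise at 0 in control replicate 2, and Incenp, the scaffold, was 18 and 18 in control and 33 and 44 in mdx. The summed level of the 4 genes was 50 and 18 in control and 71 and 94 in mdx, so few reads stand behind each of them.

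Spindle motors and assembly factors gave 4 calls among 7 genes. Kif11, the kinesin Eg5 that pushes the spindle poles apart, was 15 and 12 in control, 70 and 92 in mdx and, in the third group, 31 and 54, a rise of 2.49 in mdx (SE 0.52, adjusted p 0.00448). Hmmr, a microtubule-binding protein of the spindle poles, was 5 and 1, 59 and 57, and 2 and 26, a rise of 4.09 (SE 0.99, adjusted p 0.0115). For Kif11 the 3 groups were apart, while Hmmr in the third group reached from within the control range to well above it.

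The remaining calls of this role were Kif2c, a kinesin that depolymerizes microtubules (2.05, adjusted p 0.0229), and Tpx2, an activator of Aurora A (1.81, adjusted p 0.0404). Kif15, Kif4 and Nusap1 had differences of 1.93, 2.58 and 1.68 with adjusted p-values of 0.0539, 0.0611 and 0.0701. All 7 genes lay above 0 in this comparison.

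Of the 6 genes of the central spindle and cytokinesis, 3 rose in mdx. Anln, the scaffold anillin of the contractile ring, was 6 and 38 in control against 125 and 171 in mdx, with 34 and 60 in the third group, a rise of 3.16 in mdx (SE 0.65, adjusted p 0.00419). Ect2, the exchange factor that switches on RhoA at the cell equator, rose by 2.63 (adjusted p 0.0156) and Kif23, the kinesin of the centralspindlin complex, by 2.20 (adjusted p 0.0227). Racgap1, the other part of centralspindlin, differed by 1.55 (adjusted p 0.0992).

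Prc1, the protein that bundles microtubules of the central spindle, was 276 and 131 in control, then 99 and 167 in mdx, and stood at 187 and 158 in the third group. The groups overlapped, and the difference of -0.56 in mdx did not pass the test (adjusted p 0.328). Kif20a, a kinesin needed for cytokinesis, was 44 and 20 in control and 50 and 75 in mdx. Of its exonic bases 29.3% overlap Cdc23 on the opposite strand, and as the use of strand in counting was not stated, the value of Kif20a is uncertain. The same holds to a lesser extent for Kif4 (15.1% of exonic bases, with Pdzd11), Ncapg (13.4%, with Lcorl) and Prc1 (11.1%, with Rccd1), and 6 further members share less than 8% of their exonic bases with other genes.

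**Figure D3:**
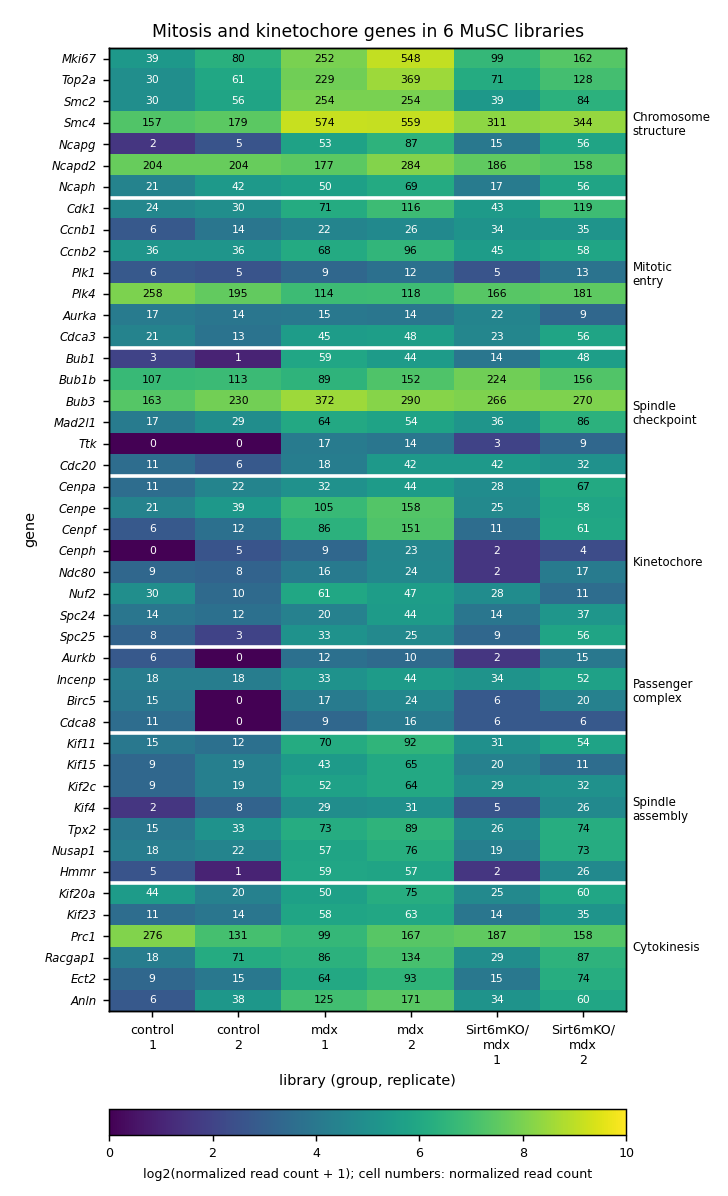
Normalized read counts of the 45 mitosis genes in 6 libraries, with the color on a log2(value + 1) scale, the value written in each cell, genes grouped by role in rows and libraries in columns. The mdx columns are the brightest for most genes, with the highest value in an mdx library for 32 of 45, and rows that are bright in every column include Ncapd2, Plk4, Bub3 and Prc1.

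In the control libraries 24 and 11 members rested on fewer than 10 approximate reads, in the third group 16 and 9 did, and in the mdx libraries none did. The calls also depended on single libraries, and those of Mki67, Top2a, Smc2 and Smc4 held whichever library was left out. Without mdx replicate 1, 7 members were called higher, and Anln, Bub1, Cdk1, Cenpe, Ect2, Hmmr, Kif23, Kif2c, Tpx2 and Ttk no longer passed. Without mdx replicate 2, 5 were called, and Cenpf, Kif11 and Ncapg were lost along with the same genes except Bub1. Without control replicate 1 the calls of Cdk1, Cenpe, Ect2, Kif23, Kif2c and Tpx2 were lost, without control replicate 2 those of Cdk1 and Hmmr, and without replicate 2 of the third group those of Kif2c and Tpx2. Plk4 came to -1.15 without control replicate 2. It was called lower when the log2 values of each library were centred by GC content, without and with a replicate block (-1.26 in both, adjusted p 0.0259 and 0.0263). Smc4 was called under all 18 alternatives of the processing tried, and Mki67, Top2a and Smc2 under 17 of 18. With centring by GC content, however, Smc4 came to 1.01, at the edge of the call, and Smc2 to 1.86.

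The next comparison, between both groups on the mdx background, addressed MuSCs of mdx mice labelled with and without the Sirt6 deletion. Of the 45 genes, 4 (8.9%) were lower in the third group, against 2.54% of all genes tested, and none was higher, against 5.62%. The median of the members was -0.86 and that of all genes 0.02, with 38 members below 0. Both libraries lay below both mdx libraries in 19 members (42.2%), against 27.2% of all genes, and above both in 3, against 28.8%. Ttk and Cenph, which passed the filter only through mdx, are among the 19 and the 38 and are no support there. At an unadjusted p under 0.05, 11 members (24.4%) were lower, against 11.1% of all genes, and none was higher, against 14.1%.

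The 4 genes that were lower were Smc2, Cenpe, Top2a and Mki67, whose values in every library are given with their roles. Centring by GC content left only the call of Smc2, and a pseudocount of 0.1 left those of Smc2 and Top2a. Smc2 fell by 2.13 on the log2 scale (SE 0.43, adjusted p 0.00695), from 254 in both mdx libraries to 39 and 84. Cenpe fell by 1.73 (SE 0.51, adjusted p 0.0464), Top2a by 1.60 (SE 0.42, adjusted p 0.0281) and Mki67 by 1.55 (SE 0.42, adjusted p 0.0342). All 4 had a mean of at least 50 over the 6 libraries and had been higher in mdx than in control; the 2 comparisons share the mdx libraries. Hmmr had the lowest value of the list, -2.71, but its libraries in the third group spread from 2 to 26 (SE 0.99, adjusted p 0.102).

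By role, the median against mdx was -1.52 for the centromere and kinetochore, -1.19 for chromosome structure, -1.13 for cytokinesis, -0.95 for spindle motors and assembly and -0.80 for the passenger complex. It lay closer to 0 for mitotic entry, at -0.32, and for the spindle checkpoint, at -0.18. Smc4 stood just outside the call, with a difference of -0.79 (SE 0.25, adjusted p 0.0590). Cdk1, Bub1 and Kif11 differed from mdx by -0.34, -0.94 and -0.95 without passing the test, and the 95% interval of Cdk1 reached from -1.42 to 0.74. Of the 7 members above 0, Bub1b had the highest value, 0.68 (adjusted p 0.232), with 89 and 152 in mdx and 224 and 156 in the third group.

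The libraries labelled Sirt6mKO/mdx did not contribute alike to this comparison. Replicate 1 lay below both mdx libraries in 37 of 45 members (82.2%, against 37.9% of all genes) and replicate 2 in 21 (46.7%, against 36.7%). With replicate 1 left out, no member was called lower and the median was -0.20. With replicate 2 left out, 1 (Smc2) was called lower and the median was -1.36. Leaving out mdx replicate 1 gave 1 call (Mki67) and leaving out mdx replicate 2 none. Scaling each library by its total in place of the size factors gave 13 members (28.9%) called lower and a median of -1.44, but also 18.4% of all genes called lower and a median of all genes of -0.58.

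**Figure D4:**
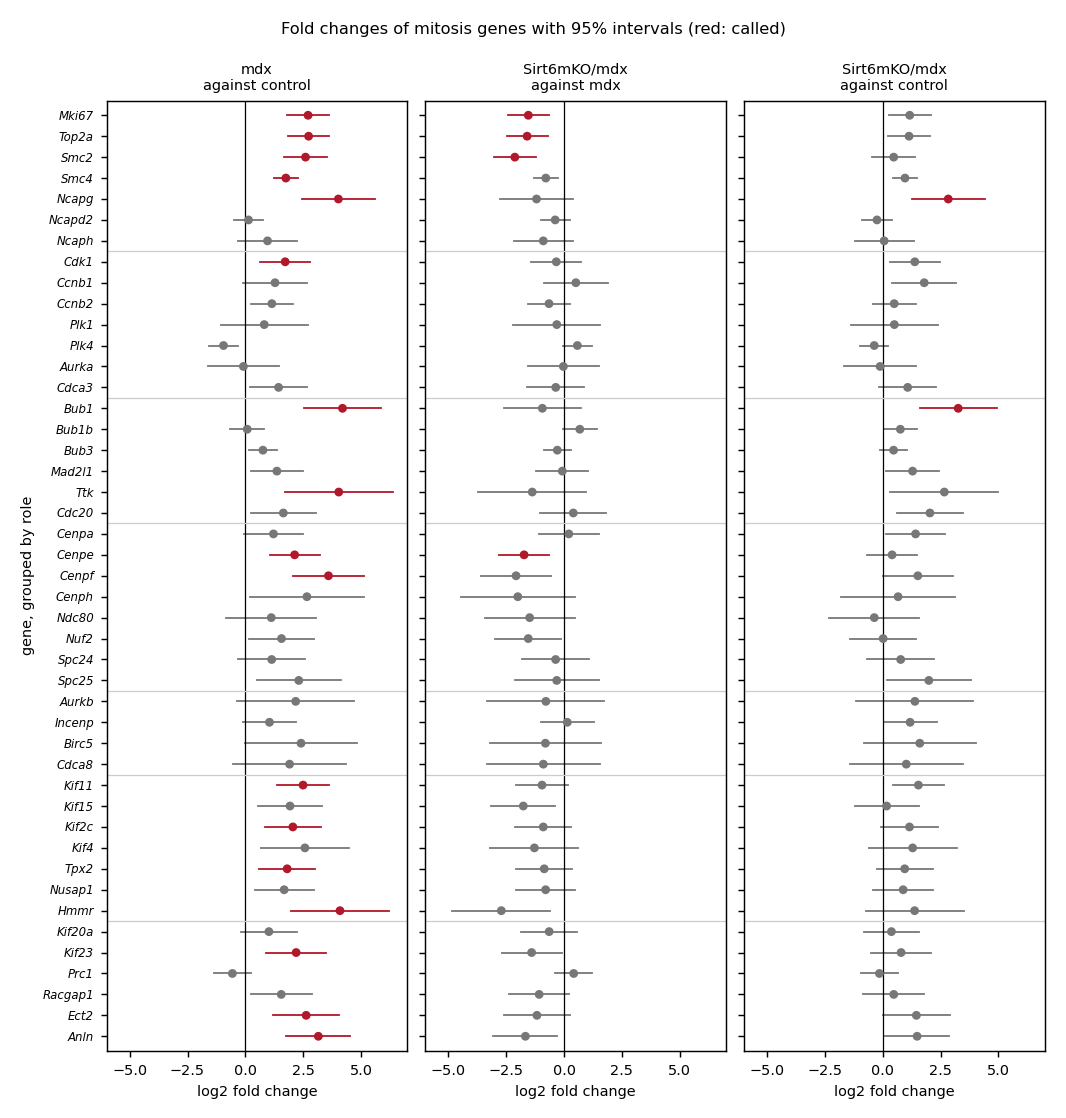
Log2 fold changes of the 45 mitosis genes (points) with 95% intervals (lines) in the 3 comparisons, with genes grouped by role in rows and called genes in red. In mdx against control 17 genes are red and right of 0, in the second panel 4 are red and left of 0, and in the third panel Bub1 and Ncapg are red.

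Against control, the libraries labelled Sirt6mKO/mdx held 2 members (4.4%) called higher, against 5.19% of all genes, and none lower, against 2.68%. At an unadjusted p under 0.05 in limma 17 were higher (37.8%, against 13.1% of all genes) and none was lower (against 11%). The share of calls was near that of all genes, whereas the median was 1.01 for the members and 0.01 for all genes, with 40 members above 0. Both libraries lay above both control libraries in 19 members (42.2%), against 26.3%, and below both in 2, against 25.3%. The called genes were Bub1, at 3.26 (SE 0.78, adjusted p 0.0177), and Ncapg, at 2.83 (SE 0.74, adjusted p 0.0272). Without either mdx library, which contributes only to the estimate of the spread, neither was called, and the same held without replicate 2 of the third group and without control replicate 2. Without control replicate 1 the call of Ncapg was lost. Smc4 differed by 0.96 (adjusted p 0.0261), below the fold change for a call, and Cdc20 by 2.04 (adjusted p 0.0708). Replicate 1 exceeded both control libraries in 21 members (46.7%, against 36.8% of all genes) and replicate 2 in 37 (82.2%, against 36.6%). Leaving out replicate 2 of the third group gave a median of 0.46 with 33 members above 0, and leaving out replicate 1 gave 1.48. With scaling by the total the median was 0.50, beside -0.58 for all genes. The mean of the third group lay between the means of control and mdx for 35 of the 45 genes (77.8%, against 38.7% of all genes, from the same libraries as these comparisons), including Plk4 and Prc1, whose means were lower in mdx than in control.

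**Figure D5:**
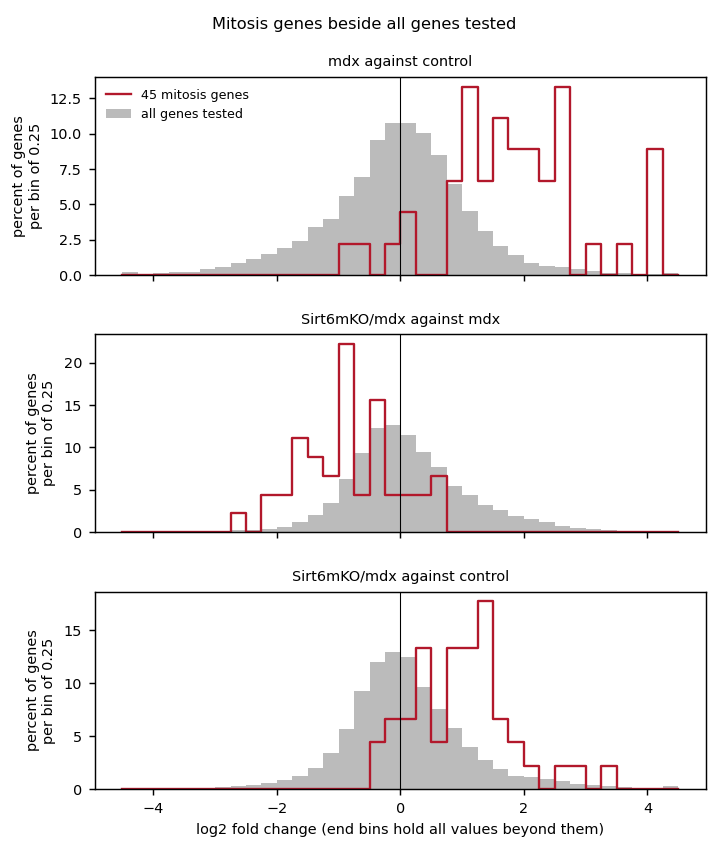
Distribution of log2 fold changes in bins of 0.25 for all 15915 genes tested (grey bars) and for the 45 mitosis genes (red line), as a percent of each set, in the 3 comparisons. The medians of the mitosis genes are 1.75, -0.86 and 1.01 from top to bottom, where those of all genes are close to 0.

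Other genes of mitosis outside the 45 were read from 4 lists with 91 genes, all of them tested. In mdx against control 8 were higher (8.8%, against 6.89% of all genes) and 2 lower (2.2%, against 7.34%), so the share called higher was near that of all genes. At an unadjusted p under 0.05, 19 were higher (20.9%, against 15.5% of all genes) and 5 lower (5.5%, against 15.4%). The list of 30 further kinetochore and checkpoint genes also holds Cenpj, a gene of the centriole. Among these 30 genes 4 were higher. Cenpw, of the inner kinetochore, was higher at 2.95 and Kntc1, of the complex that brings dynein to the kinetochore, at 1.91. Ska2, of the Ska complex that follows microtubule tips, was higher at 1.84 and Casc5, the Knl1 scaffold, at 1.64. The median of these 30 genes was 0.74, and 9 were higher and none lower at an unadjusted p under 0.05. None of 18 genes of condensin II, cohesin and its regulators was called, with 3 higher and none lower at an unadjusted p under 0.05 (against 15.5% and 15.4% of all genes), and their median was 0.33. Of 18 genes of the anaphase-promoting complex and its partners, Anapc10 was higher at 1.44, Cdc16 at 1.03 and Ube2s lower at -1.62. Of 25 regulators of G2 and M phase transcription and of CDK1, Rbl1, a pocket protein that represses cell cycle genes, was higher at 2.60, Ccna2, the cyclin of S and G2 phase, at 2.30, and Nfya, a subunit of NF-Y, lower at -1.18.

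Between the third group and mdx, 3 of the 91 genes were lower in the third group (3.3%, near the 2.54% of all genes) and none was higher (against 5.62%), with 14 lower and 4 higher at an unadjusted p under 0.05, where 11.1% and 14.1% of all genes were lower and higher. Those called were Rbl1, at -2.02, and the anaphase-promoting complex subunits Cdc16 and Anapc1, at -1.03 each. Against control Cenpw and Ska2 were higher, at 3.67 and 1.90 (2.2%, against 5.19% of all genes), and Nfya lower, at -1.20 (1.1%, against 2.68%). The medians of the 4 lists against mdx lay between -0.47 and 0.04, nearer to 0 than the -0.86 of the 45 genes.

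Markers of other cells in these sorted samples were read beside these results. Summed over 9 leukocyte and macrophage genes the level was 127 and 155 in control, 146 and 102 in mdx and, in the third group, 250 and 232, and Ptprc, the defining leukocyte gene CD45, was at most 19 in any library. Of these genes Lyz2 was called higher and Cd68 lower in mdx, and Lyz2 was higher in the third group than in control. Fibro-adipogenic markers (5 genes) summed to 1726 and 2261, 4689 and 2859, and 3672 and 2235, with 2 called higher in mdx and 1 lower in the third group than in mdx. Endothelial markers (5 genes) summed to 897 and 758, 408 and 405, and 610 and 635, with 2 lower in mdx. Erythroid markers (6 genes) summed to between 7 and 91, with Hbb-bs called higher in the third group than in mdx. Myofibre markers (6 genes) summed to 5940 and 6761, 4421 and 1332, and 9175 and 3982, so mdx replicate 2, the library in which 25 of the 45 mitosis genes had their highest value, held the least muscle fibre RNA. Of these 6 genes 3 were called lower in mdx than in control and 2 higher in the third group than in mdx. The part of these cell types in the levels of the mitosis genes was not tested.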

How the data were processed

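RNA of sorted MuSCs was sequenced on an Ion Torrent instrument after removal of ribosomal RNA. According to the submitters' processing notes and the methods, the authors used FastQC 0.10.1, STAR, featureCounts 1.4.5-p1 and DESeq2 on GRCm38, and left out reads on several genes or places. The authors made the deposited score values, whole numbers per gene, by dividing read counts by 1 size factor per library and rounding, as the gaps between the whole numbers show. They are called normalized read counts. Recovered size factors ranged from 0.537 to 1.53. DESeq2 needs raw counts and was not run. Instead limma 3.58.1 (R 4.3.3) was fitted to log2(value + 1) with a prior variance following the mean and all 6 libraries, without a block. The fit was tried on simulated data with the same dispersion (spread beyond counting error) for every gene. That trial does not show how calls hold at the spread of these libraries. Genes with a mean of at least 5 were tested (15915 of 22706). This scale understates changes of low genes.

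The members and all lists were chosen with earlier results of these data known. Values per library are given for chosen representatives of each role, the 3 highest and 3 lowest members in mdx against control, and those lower against mdx. From other lists up to 3 called genes were to be named per list; all called ones are given, beyond that rule. Alternatives were other pseudocounts (0.1 and 5), minimum means, scalings, prior variances, a replicate block, centring by GC content, fits of 2 groups and each library left out. Exon overlap, length and GC content were read from GENCODE mouse release 21, which held 98.5% of the gene identifiers. Adjusted p-values are from limma.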

Additional observations from a re-analysis of the deposited data

How the results depend on the processing

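The number of members called depended on the filter, the prior variance and single libraries, while the direction of each median held. Higher in mdx against control were 17 members, but 8 with no minimum mean, 8 with a minimum mean of 50 (which left 16 members to test), 4 with one prior variance, 12 (and 1 lower) with centring by GC content, which ended the calls of Cenpe, Ect2, Kif23, Tpx2 and Ttk, and 5 to 19 when 1 library was left out. Lower than mdx in the third group, labelled Sirt6mKO/mdx, were 4, but 2 with a pseudocount of 0.1, 0 with no minimum mean, 13 with the total of each library, 0 with one prior variance, 1 with centring by GC content, 2 with the replicate block and centring by GC content, and 0 to 5 with 1 library left out. The median of this comparison then ran from -1.36 to -0.20. Above control in the third group were 2, but 0 with no minimum mean, a minimum mean of 50, one prior variance or only the 2 groups compared, 1 with centring by GC content, 4 with the replicate block, alone or with centring by GC content, and 0 to 2 with 1 library left out. Apart from the fewer members tested at a minimum mean of 50, the cause was not tested.

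The labels do not say that equal replicate numbers mark a shared animal or batch. Deviations of same-numbered libraries correlated across 15915 genes with r of -0.13 (control and mdx), 0.12 (control and the third group) and 0.01 (mdx and the third group). These correlations do not show whether libraries shared an animal or batch, and the numbers were taken as names only. With the replicate block 20 members were higher in mdx, 6 were lower in the third group than in mdx and 4 were higher than control. With the mdx numbers crossed, an alternative chosen after seeing the data, the first 2 counts were 18 and 4.

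Over all genes, no minimum mean gave 417 higher and 572 lower in mdx against control (1097 and 1168 as reported), 154 and 14 in the third group against mdx (895 and 405) and 169 and 52 against control (826 and 427). One prior variance gave 181 and 360, 0 and 0 (with 3156 genes at an unadjusted p under 0.05), and 65 and 22. Scaling by the total gave 479 and 2932 against mdx and 455 and 2693 against control, so that 14.0% of calls against mdx were higher in place of 68.8%, and 14.5% in place of 65.9% against control. On that scale 30 members lay above 0 against control. Aurka, near 0 in mdx against control, turned to 0.05 with centring by GC content, with or without the replicate block, and ran from -0.22 to 0.05 with 1 library left out. Of 684 further values of single genes under alternatives, 560 kept their direction and side of the threshold, 110 fell short of it, 11 passed it and 3 turned direction, all of them of Aurka.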
